A study of Mus musculus with 2343 samples.

Results

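Wild-type (WT) cortical thymic epithelial cells (cTECs) of the mouse thymus were measured 1 cell at a time, and 70.8% of the wells of this group, which filled a plate of 16 rows by 24 columns, are described here (about 270 cells, group sizes being rounded to the nearest 10). They were chosen by depth alone: a well was kept if it held at least 50000 reads counted in genes and at least 1000 genes with a read. The same filter kept 1438 of the 2273 single-cell wells of the whole series. The WT cTECs carried the strain name Eedflfl, in which Eed is floxed and no Cre driver is named, and were labelled ZsGreen negative. They are set beside about 290 WT medullary cells of the mTEChi subset (high surface MHC class II), of the strain Eedflfl::ZsGreen, and beside about 330 cTECs labelled Eed, of the strain Eedflfl::beta5tCre, in which Cre is driven from the Psmb11 (beta5t) locus. All 3 groups carry the floxed Eed allele. No label names an animal, an age, a sex or a sort gate for these cells.

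Cortical thymic epithelium forms the outer niche of the thymus. It draws in blood-borne progenitors with chemokines, commits them to the T cell lineage with Notch ligands, and shows them the self-peptides on which immature thymocytes are positively selected. The transcription factor Foxn1 directs this programme. The peptides are made by enzymes typical of the cortex, among them the thymoproteasome subunit beta5t (Psmb11), the thymus-specific serine protease Prss16 and the lysosomal protease cathepsin L (Ctsl). The chemokine Ccl25 and the Notch ligand Dll4 complete the 6 markers by which the cell type was checked.

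The stretches of 250 bases upstream of the start sites of Psmb11, Ccl25, Cxcl12 and Dll4 are shown because the levels of these 4 genes covaried over cells, as described further down. The start sites are those of the RefSeq promoter table of assembly GRCm38.p6, and the letters, taken from it, are written 5′ to 3′ on the strand of the gene. Capitals mark the 5-letter core of the Foxn1 motif, GACGC, which reads GCGTC where it lies on the other strand.
Psmb11: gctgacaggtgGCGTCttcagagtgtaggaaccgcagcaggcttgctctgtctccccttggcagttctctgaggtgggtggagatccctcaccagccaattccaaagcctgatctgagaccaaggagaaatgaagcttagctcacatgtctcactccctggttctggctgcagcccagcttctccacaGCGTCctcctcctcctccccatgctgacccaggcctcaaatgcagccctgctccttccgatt
Ccl25: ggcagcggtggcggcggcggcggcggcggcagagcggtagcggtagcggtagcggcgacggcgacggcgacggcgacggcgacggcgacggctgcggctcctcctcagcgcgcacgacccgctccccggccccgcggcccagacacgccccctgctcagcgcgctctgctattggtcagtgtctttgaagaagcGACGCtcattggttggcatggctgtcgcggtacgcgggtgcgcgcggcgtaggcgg
Cxcl12: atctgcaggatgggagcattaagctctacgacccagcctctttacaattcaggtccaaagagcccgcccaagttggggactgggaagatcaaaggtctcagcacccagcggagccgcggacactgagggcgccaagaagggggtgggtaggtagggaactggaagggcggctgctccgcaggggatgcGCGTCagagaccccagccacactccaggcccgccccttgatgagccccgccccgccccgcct
Dll4: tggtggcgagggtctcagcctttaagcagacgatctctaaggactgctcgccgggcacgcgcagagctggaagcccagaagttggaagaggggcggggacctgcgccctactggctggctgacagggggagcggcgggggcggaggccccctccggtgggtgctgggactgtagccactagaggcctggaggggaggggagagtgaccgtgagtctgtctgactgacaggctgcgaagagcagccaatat
The Psmb11 stretch lies at chr14:54625060-54625309 on the plus strand and holds GCGTC 2 times. The Ccl25 stretch (chr8:4324960-4325209, plus strand) holds GACGC 1 time, and the Cxcl12 stretch (chr6:117168285-117168534, plus strand) holds GCGTC 1 time. Neither form is in the Dll4 stretch (chr2:119325534-119325783, plus strand). The stretches of Ctsl and Foxn1, which are not shown, hold neither form as well, and no stretch was available for Prss16. Of all 32851 stretches of this length in the table, 7423 (22.6%) hold the core on one strand or the other, so a match is a description of the letters and of nothing more.

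The kept WT cTECs held 52220 to 937034 reads in genes, with a median of 538740, and a median of 6444.5 genes. The best-covered of the wells left out (29.2% of the plate) had 39641 reads, and no well was left out for its number of genes alone. Median depth was 516069 reads in Eed cTECs and 289438 in WT mTEChi cells. The median share of spike-in reads was 0.108% in WT cTECs, 0.899% in Eed cTECs and 38.3% in WT mTEChi cells. The WT cTECs filled 1 plate, the Eed cTECs another, and the WT mTEChi cells parts of 4 further plates. The cells of a group therefore count as 1 sample: no test between groups was made, and plate, strain and library preparation cannot be told apart from cell type or genotype. Levels are reads of a gene summed over the cells of a group and scaled to the group's total of gene reads (as CPM), with exact 95% Poisson intervals, and shares of cells carry exact Clopper-Pearson 95% intervals. The Poisson intervals take reads as independent counts, although the reads carry no molecular identifiers, and they leave out the spread over cells. The level of Psmb11 without its top cell was 756.8 CPM, below its interval of 785 to 795 CPM. The intervals of shares take cells as independent draws. Neither kind covers differences between animals, plates or preparations. Levels of different genes are not compared, because exon lengths were not used here.

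Before the results, some wells need naming. Of the 14 no template controls, 3 passed the filter with 51838 to 73567 gene reads, and 57.7% to 63.9% of their reads were spike-ins. All 14 lay on the mTEChi plates, where kept WT mTEChi cells held 14.2% to 86.6% of spike-in reads. A kept WT cTEC held at most 3.64%, but its plate had no such control, so these shares do not separate cells from empty wells. Reads outside genes outnumbered reads in genes in 29 of the WT cTECs. Also, 3 cells picked after their values were seen did not look cortical. The cell with the most Ccl22 (59728 CPM) held Cd86 at 3381 CPM, Ccr7 at 606 CPM and Aire at 203.7 CPM. It had no read of Psmb11 and Ctsl at 5.46 CPM, but Dll4 at 123.7 CPM. The cell with the most Aire (4628 CPM) held Ccr7 at 1785 CPM and had 90.5% of its reads outside genes. It had no read of Psmb11 and Ctsl at 31.6 CPM, but Foxn1 at 426.5 CPM and Prss16 at 63.2 CPM. The cell with the most Lyz2 (3636 CPM), a macrophage lysozyme, held the complement genes C1qa at 2274 CPM and C1qb at 2661 CPM and no read of Epcam, yet Ctsl at 6777 CPM. Values that these 3 cells moved by more than 1.5 times, or across the limit for variable genes, are given without them as well where they are named.

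Cells differed in how many of the 6 markers they carried. At least 10 reads of all 6 markers were present in 61 cells, of 5 markers in 40, of 4 in 42, of 3 in 60, of 2 in 50 and of 1 in 17, and 2 cells had no marker at 10 reads. Ctsl was the marker with a read in every cell, and 96.7% of the cells had at least 10 reads of it. Its level was 7995 CPM (7980 to 8010), the median cell had 5751 CPM and the highest 35647 CPM. Only 8 cells lay under 100 CPM of Ctsl, and 2 of these held 10 or more reads of Psmb11. Prss16 was found in 97.1% of cells (94.3% to 98.7%), and at 10 reads in 87.1%, at 3443 CPM (3434 to 3453). The median cell held 604 CPM of Prss16 and the highest 28923 CPM, so that the group level lay far above that of a typical cell. Foxn1 was found in 74.6% of cells (69.03% to 79.7%), and at 10 reads in 64.7%, at 260.7 CPM (257.99 to 263.4), with a median cell of 143.4 CPM and a highest of 1740.4 CPM.

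The other 3 markers reached 10 reads in 29.04% to 52.2% of the cells. Psmb11 was found in 63.2% of cells (57.2% to 68.98%), and 49.3% had at least 10 reads of it. Its level of 789.96 CPM (785 to 795) came from a skewed distribution: the lowest cell held none, the median cell 16.7 CPM, the upper quartile 957 CPM and the highest cell 6782 CPM. Ccl25 was found in 79.4% of cells (74.1% to 84.1%) but reached 10 reads in only 52.2%. Its level was 1703 CPM (1696 to 1709.8), with a median cell of 34.2 CPM, an upper quartile of 1072 CPM and a highest cell of 16091 CPM. Dll4 was found in 37.1% of cells (31.4% to 43.2%) and at 10 reads in 79 cells (29.04%), at 93.4 CPM (91.8 to 95.007) and up to 1595 CPM. When each cell was thinned to 50000 gene reads, the shares of cells with a read were 52.2% for Psmb11, 91.2% for Prss16, 57.4% for Ccl25, 98.2% for Ctsl, 67.3% for Foxn1 and 31.6% for Dll4. Low counts of these genes also occurred in nearly empty wells of the same plate, those with under 2000 gene reads (27.1% of the plate). Of these wells, 96 had a read of Ctsl, 78 of Prss16, 49 of Ccl25, 24 of Psmb11, 8 of Foxn1 and 7 of Dll4. None of them reached 10 reads of any of the 6, but they held at most 1952 gene reads, with a median of 721. Wells of so few reads cannot show whether 10 reads in a kept cell lie above the background. Of the 14 no template controls, 1 held more than 10 reads of Ccl25, at 2105 CPM of its 67466 gene reads. Ctsl was found in 2, with up to 28 reads, while Prss16 and Foxn1 were each found in 1 with at most 4 reads. Shares from 1 read upward, which include such low counts, are given unless 10 reads are named.

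The genes of the 6 markers lie on separate stretches of GRCm38, apart from Prss16 and Ctsl, which are on the same chromosome. Psmb11 is at chr14:54625310-54629556, Prss16 at chr13:22002176-22009741 and Ctsl at chr13:64361890-64370772. Ccl25 is at chr8:4325205-4360020, Foxn1 at chr11:78357577-78386783 and Dll4 at chr2:119325784-119335666. All 6 are protein-coding genes in the RefSeq annotation.

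**Figure D1:**
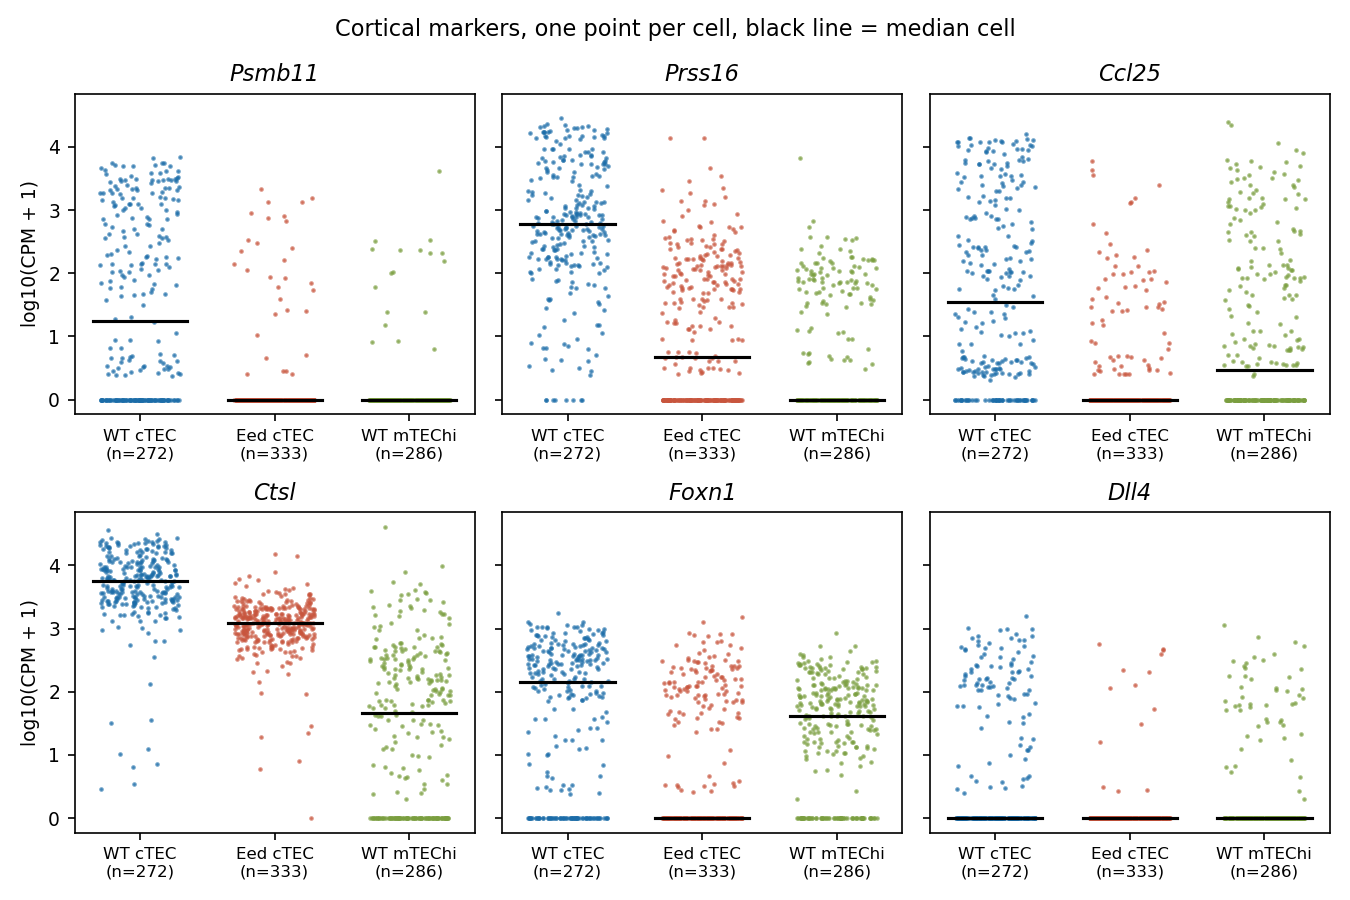
Level of each of the 6 cortical markers in single cells, as log10(CPM + 1), with 1 point per cell and a black line at the median cell, for WT cTECs, Eed cTECs and WT mTEChi cells (about 270, 330 and 290 cells). In WT cTECs, Ctsl runs from 1.90 to 35647 CPM (median 5751 CPM), with 8 cells under 100 CPM. Psmb11, Ccl25 and Dll4 run from 0 up to 6782, 16091 and 1595 CPM.

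The 20 genes with the most reads held 11.1% of all gene reads and included the invariant chain Cd74 (12335 CPM), the MHC class II chains H2-Ab1 (6248 CPM) and H2-Aa (4994 CPM), and the class I light chain B2m (6161 CPM). The class I heavy chains H2-K1 (4120.0 CPM) and H2-D1 (3319 CPM), the interferon-inducible Ifitm3 (3385 CPM) and Ly6e (4846 CPM), Ctsl and Prss16 were also among them. The other 10 were the mitochondrial RNAs mt-Rnr2, mt-Cytb, mt-Co1 and mt-Nd1, the nuclear RNA Malat1, the ribosomal RNA copy Rn18s-rs5, and Eef1a1, Actg1, Itm2b and Hspa8. Reads were seen from 31541 genes in all, of which 5446 were found in at least 50% of the cells, 1.30% of the genes in at least 95% and 29 genes in every cell. At the other end, 1359 genes with a level of at least 10 CPM were found in under 25% of the cells.

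The class II chains were found in nearly all cells. Cd74, which chaperones class II molecules, was present in every cell, from a lower quartile of 8880 CPM to an upper quartile of 14037 CPM. H2-Ab1 was present in every cell too, H2-Aa in 99.6% and H2-Eb1 in 99.3%. The peptide exchange factor H2-DMa was found in 97.1% of cells at 575 CPM, and Ciita, the master activator of class II genes, in 93.4% at 362.7 CPM. The modulators of that exchange, H2-Oa and H2-Ob, were found in 75.7% and 23.5% of cells. Class I genes were as widely found, with a median share of 98.5% of cells over the 11 genes listed, among them the peptide transporter subunits Tap1 (296.97 CPM) and Tap2 (189.6 CPM).

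RNAs of standard, immune and thymic catalytic subunits of the proteasome were all found in these cells; their presence in the same cell was not examined. The standard subunits Psmb5 (94.2 CPM), Psmb6 (166.5 CPM) and Psmb7 (109.5 CPM) were found in 81.99%, 91.9% and 81.6% of cells. The immune subunits Psmb8, Psmb9 and Psmb10 were found in 83.1%, 97.1% and 91.2%, at 176.4, 385.5 and 291.1 CPM. Psmb11, which takes the place of Psmb5 or Psmb8 in thymoproteasomes, was found in 63.2%. The 15 structural and activator subunits were each found in at least 52.2% of the cells. Besides Ctsl, the lysosomal genes included Lamp2 (1725 CPM, 97.4% of cells), Lamp1 (566 CPM), Ctsb (342.2 CPM) and Ctsd (321.3 CPM). Ctss, the cathepsin known for class II processing outside the cortex, was found in 14.7% of cells at 21.4 CPM.

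Ligands that act on thymocytes were found in 7.72% to 98.2% of the cells. Cxcl12, which guides progenitors through its receptor Cxcr4, was found in 98.2% of cells at 2096 CPM (2088 to 2103), from a lower quartile of 757 CPM to an upper quartile of 2992 CPM. Il7, a survival factor of early thymocytes, was found in 93.015% at 336.3 CPM, and Kitl, the ligand of Kit, in 81.6% at 196.9 CPM. Wnt4 was found in 92.6% of cells at 142.9 CPM. Of the Notch ligands, Jag2 was found in 89.7% and Jag1 in 86.03%, at 150.55 and 142.6 CPM, whereas Dll1 was found in 51.1% and Dll4 in 37.1%. The adhesion molecules Vcam1 and Icam1 were found in 93.8% and 94.9%. Tslp, a cytokine known from medullary epithelium, was found in 7.72% at 2.12 CPM.

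Transcription factors that build the thymus primordium were widely found. Of the 14 listed, 11 were found in at least 50% of the cells. Trp63, the p63 protein of epithelial stem and progenitor cells, was found in 95.96% at 758 CPM, Pax1 in 94.9% at 308.9 CPM and Meis1 in 90.8% at 279.5 CPM. Eya1 (210.35 CPM), a factor of the pharyngeal pouch, was found in 90.8%. Tbx1 and Gcm2, which mark other pouch derivatives, were each found in 1.10%. Among receptors, Fgfr2, through which Fgf7 and Fgf10 act on thymic epithelium, was found in 91.5% at 333.1 CPM, Egfr in 92.6% at 272.4 CPM and Bmpr1a in 88.6% at 202.3 CPM. Tnfrsf11a (RANK), which drives medullary maturation, was found in 6.25% at 10.3 CPM, and its relative Ltbr in 86.03% at 121.3 CPM.

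Polycomb genes were found at varied shares. Eed itself, the PRC2 subunit that binds H3K27me3, was found in 48.2% of WT cTECs at 34.2 CPM. Of the 2 alternative methyltransferase subunits, Ezh1 was found in 55.1% at 73.9 CPM and Ezh2, which is tied to dividing cells, in 22.4% at 14.1 CPM. The reads do not show which exons were covered, so the Eed level says nothing of the state of the floxed part. In the cells labelled Eed, its level was 20.9 CPM, against 39.4 CPM in WT mTEChi cells. None of the 10 PRC2 genes and 1 of the 16 PRC1 genes measured for variation lay at least 1 natural-log unit above the trend described next, against 4.99% of all genes measured.

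Cell-to-cell variation was measured as the squared coefficient of variation (CV2) of CPM over the WT cTECs, against a running median over genes of like mean level. Of 10003 genes with a mean of at least 10 CPM and a read in at least 5% of the cells, 4.99% lay at least 1 natural-log unit above that trend, and 2.49% at least 1 unit below it. Of the 6 markers, 4 lay above: Ccl25 by 2.31, Psmb11 by 1.98, Prss16 by 1.97 and Dll4 by 1.08 natural-log units. Ctsl lay 0.60 above the trend and Foxn1 0.51. Against a trend fitted to the spike-ins, Ctsl lay 3.58 above and Prss16 4.14, so that Ctsl too passed the limit, while Foxn1 stayed under it at 0.94. That fit used 24 spike-ins in the 200 cells with at least 100 spike-in reads. Its constant term ended at the lower bound of 1e-06, so the fitted variation keeps falling as the mean rises. Genes of high level pass such a trend more readily. The 27 cells with the most reads of a gene, about 10% of the cells, held 65.8% of all Ccl25 reads and 58.4% of all Psmb11 reads, but 31.7% of all Ctsl reads and 24.9% of the reads of Lamp2.

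**Figure D2:**
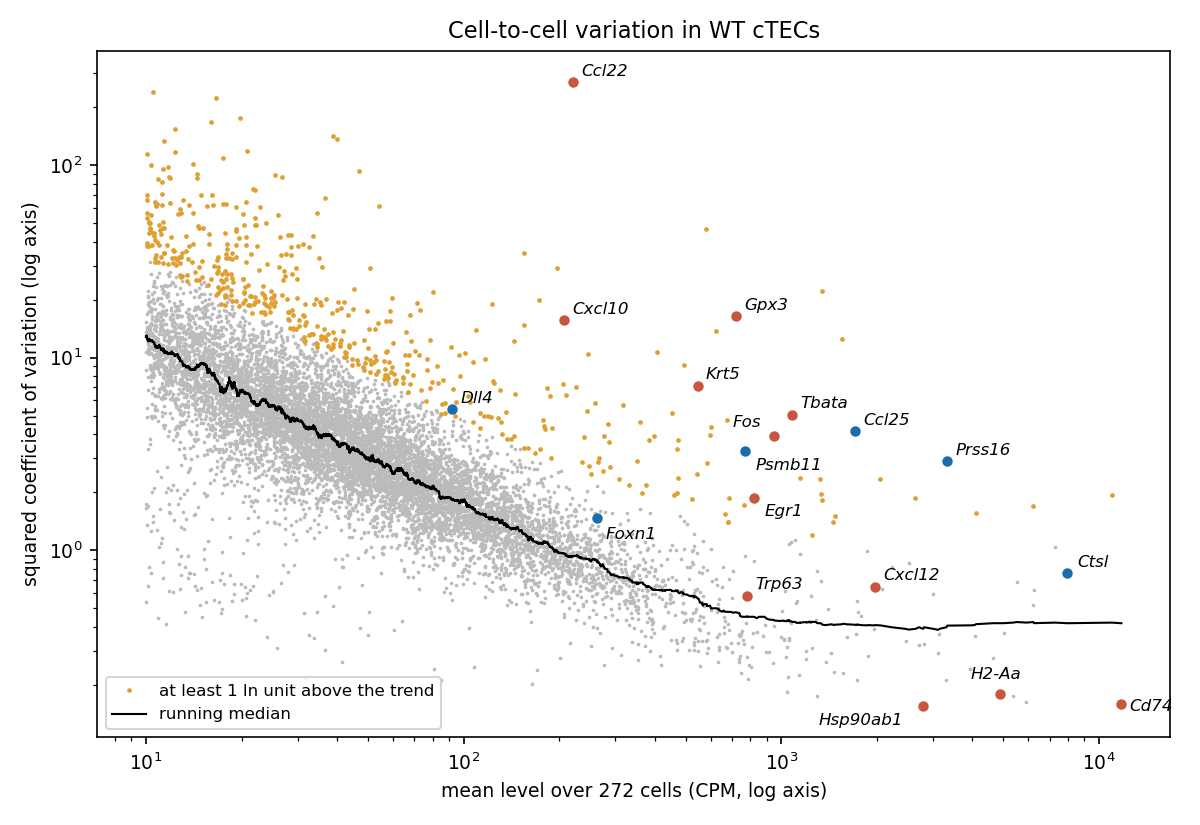
Mean level over the WT cTECs in CPM (log axis) against the squared coefficient of variation (log axis), with 1 point per gene, the running median as a black line and genes at least 1 natural-log unit above it in orange; named cortical markers are blue and other named genes red. Ccl22 stands highest (5.67 natural-log units above the line), Psmb11, Ccl25 and Prss16 lie about 2 units above it at 1.98, 2.31 and 1.97, and Cd74 lies 0.97 below it.

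Among genes of at least 50 CPM, the one farthest above the trend was Ccl22, by 5.67, but 99.8% of its reads came from 1 cell and its level without that cell was 0.429 CPM. The next with a known protein product were Gpx3 (3.54), a secreted glutathione peroxidase, the mucin-like Fcgbp (3.39), Ly6d (3.03), Sepp1 (2.91, or 0.96 without the 3 cells), Cxcl10 (2.79) and complement C3 (2.74). Gpx3 was found at 10 or more reads in 19.1% of cells, and the 27 highest cells held 98.9% of its reads. Krt5 (2.55), a keratin of basal epithelium, and Tbata (2.48) followed, together with Srgn (2.55, or 1.92 without the 3 cells), Serpina3g (2.49) and Ubd (2.32). Tbata stood at 1052 CPM in WT cTECs and at 814.8 CPM in WT mTEChi cells, with a read in 76.8% and 82.5% of cells. Several of the 20 were copies whose reads cannot be told apart from those of near-identical genes: Gm28437, Gm10925, Gm10800, Gm10801, Gm13340, Gm29216 and Gm28661. The most even genes were of that uncertain kind too, pseudogenes such as Rpl3-ps1 (2.17 below the trend) and Rpl14-ps1 (2.16 below), besides Gnas, Rpl7a, Rps2 and Rpl24.

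Fixed gene lists differed in how many members were called variable, against 4.99% of all genes measured. Of the early response genes, which answer stress and growth signals within minutes, 11 of 15 lay above the trend, with a median of 1.498 natural-log units, where the median over all genes was 0. Fos was found in 66.2% of cells with a median cell of 5.77 CPM and a highest of 13055 CPM, and Egr1 in 75.4% with a median of 214.2 CPM and a highest of 6620.1 CPM. At least 10 reads of Fos, Egr1 and Jun together were present in 37.9% of the cells, and 24.6% had under 10 reads of each. Of the cortical antigen processing genes, 3 of 5 lay above (Psmb11, Prss16 and Cd83, the last by 2.02), with a median of 1.97. The cell division list had 7 of 15 above. The medullary list had 6 of 8 above the trend, but 2 of 4 without the 3 cells named earlier, while the counts for early response, antigen processing and division genes were the same without them.

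In other lists no member was called. None of the 13 class II genes, the 11 class I genes, the 18 interferon response genes or the 11 measured thymus organogenesis factors lay above the trend, counts that are near the 4.99% of all genes. The median lay 0.27 below it for class II genes and 0.14 below for class I genes, but 0.20 above for interferon response genes and 0.21 above for organogenesis factors. Interferon-stimulated genes were present in most cells throughout: Ifitm3 in 99.6%, Isg15 in 89.7% and Ifit1 in 86.4%, the last with quartiles of 71.1 and 684 CPM. Of the keratins and adhesion genes, Krt5, Krt14 and Krt17 lay above (3 of 10). Krt8 and Krt18, keratins known from cortical epithelium, were found in 99.6% of cells each. They stayed under the 1-unit limit, at 0.72 and 0.80.

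Dividing cells were few. At least 10 reads of both Mki67 and Top2a were present in 9 cells (3.31%, 1.52% to 6.19%). All 9 had at least 10 reads of Prss16 and 4 had at least 10 reads of Psmb11. These cells held 10 or more reads of 4 to 22 of the 26 division genes, where no other cell exceeded 10. Mki67 was found in 14.7% of cells at 27.6 CPM, Top2a in 15.4% at 19.6 CPM and Ccnb1 in 3.68% at 17.9 CPM. Among G1 regulators, Ccnd2 (541 CPM, 89.3% of cells) and Cdk4 (292.9 CPM, 94.5%) were widely found, the inhibitor Cdkn1b was found in 90.4%, and Cdkn2a had no read in any cell, where 3 reads over the group would be 0.0217 CPM.

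The variable cortical markers covaried. Over the WT cTECs, thinned to 50000 gene reads each, Spearman's rho with Psmb11 was highest for Ccl25 (0.75), Prss16 (0.73), Krt18 (0.73), Crip3 (0.73) and Pithd1 (0.72) among 9385 genes found in at least 25% of cells, whose median rho was 0.05. The next 5 were Fabp5 (0.72), Gm14207 (0.71), Cstb (0.69), Cxcl12 (0.68) and Tbata (0.68). Of the 10 genes most like Ccl25, 7 were also among the 10 most like Psmb11, with Crip3 (0.72) and Tbata (0.71) next after Psmb11 itself. Crip3 is a LIM protein of the thymus, Cstb inhibits cysteine cathepsins and Fabp5 binds fatty acids. These are descriptions over cells of 1 plate, and the part of technical differences between wells was not tested. The same pairs at full depth gave 0.72 for Psmb11 with Ccl25 and 0.70 for Psmb11 with Prss16.

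Presence from 10 reads upward gave the same picture in counts of cells. Of the cells with Psmb11, 82.8% also had Ccl25, which 52.2% of all cells had. Of the 79 cells with Dll4, 68 (86.1%) had Psmb11, which 49.3% of all cells had, and 69 (87.3%) had Foxn1, which 64.7% had. Cells with Dll4 were thus mostly cells with Psmb11, whereas 50.7% of the cells with Psmb11 had Dll4, again from 10 reads upward. Foxn1 itself had a rho of 0.52 with Psmb11, 0.44 with Ccl25 and 0.42 with Dll4.

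The genes most opposed to Psmb11 were App (-0.54), the growth arrest gene Gas1 (-0.48), Rplp1 (-0.45) and the matrix protein Mgp (-0.43). Gas1 was found in 93.015% of WT cTECs at 739.9 CPM, and Mgp in 92.6% at 749 CPM. Krt14 had a rho of -0.39 with Psmb11, Dcn -0.32 and Krt5 -0.20. Krt14 and Dcn had a positive rho with each other (0.45), and so did Trp63 and Dcn (0.49). Krt5 and Psmb11 were not exclusive: 49.3% of all cells had at least 10 reads of Krt5, and of these 41.8% also had at least 10 of Psmb11. Of all cells, 49.3% had at least 10 reads of Psmb11. With the class II genes, Psmb11 had a rho of 0.00 (H2-Aa) and 0.10 (Cd74), whereas Ctsl had 0.24 and 0.36 with these genes and Foxn1 had 0.11 and 0.23.

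**Figure D3:**
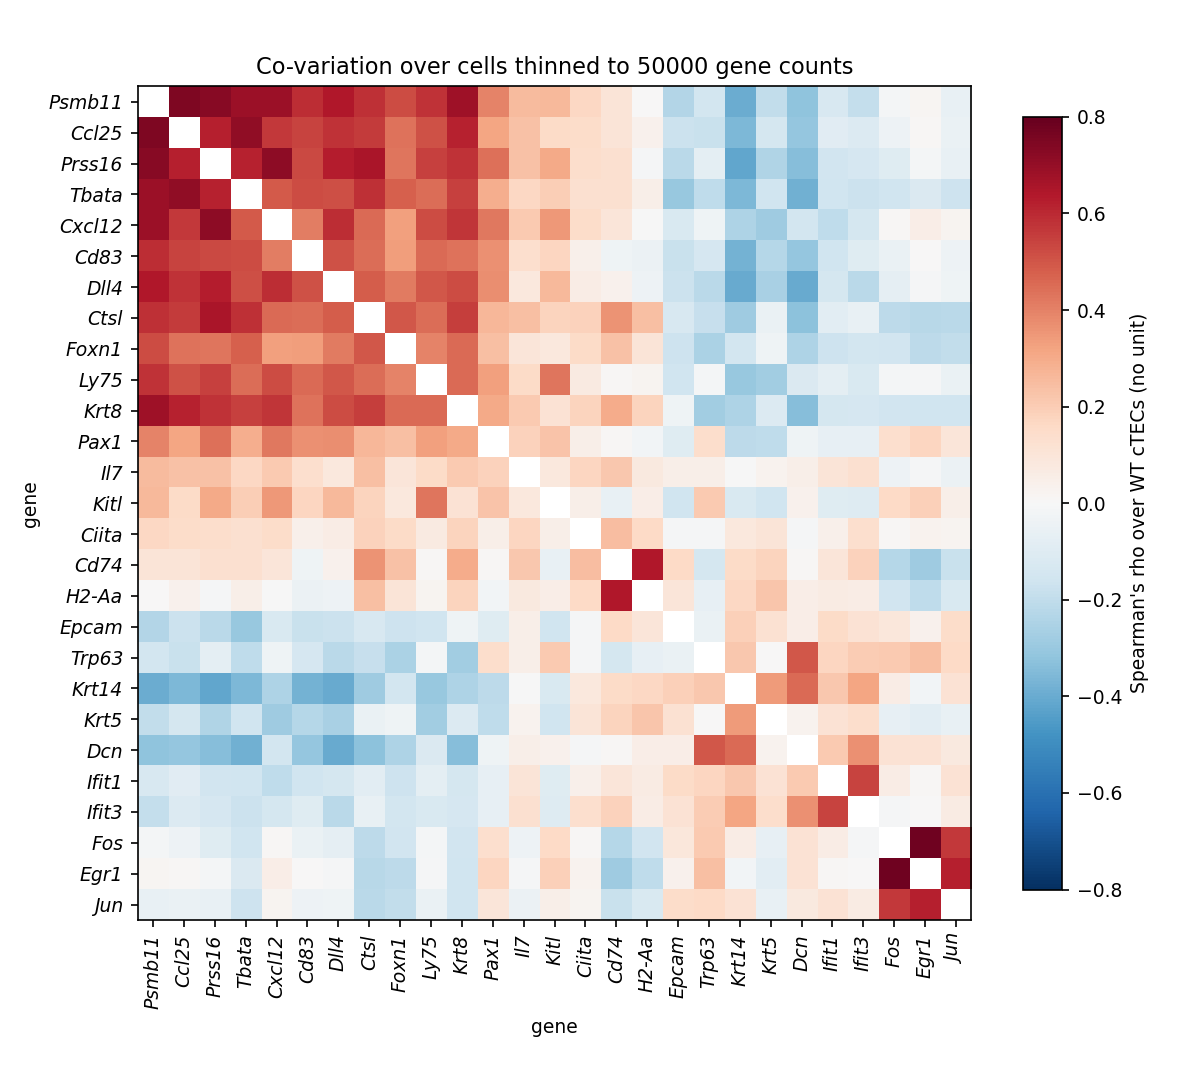
Spearman's rho over the WT cTECs, thinned to 50000 gene reads, for pairs of named genes on both axes; red is positive, blue negative and the scale has no unit. A block of genes from Psmb11 to Krt8 is red (0.75 for Psmb11 with Ccl25). Krt14 and Dcn are blue against it (-0.39 and -0.32 with Psmb11), and Fos with Egr1 is a red pair (0.78).

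Among the early response genes, Fos had a rho of 0.78 with Egr1 and 0.57 with Jun. Its rho was -0.01 with Psmb11 and -0.10 with Prss16, but -0.21 with Ctsl and -0.16 with Foxn1, and Egr1 had -0.22 with Ctsl and -0.21 with Foxn1. Over all pairs within this list the median rho was 0.38, and within the cortical antigen processing list 0.52, against 0.02 over all pairs of the 9385 genes. Interferon response genes had a median of 0.23 and class I genes 0.22, where 34.6% and 25.5% of pairs exceeded 0.3. Pairs within the PRC2 and PRC1 lists were near the background, with medians of 0.02 and 0.03. Technical measures moved with the markers as well. The number of genes found per cell at equal depth had a rho of 0.46 with Psmb11, 0.48 with Prss16, 0.43 with Ccl25 and 0.33 with Foxn1, and the mitochondrial share a rho of -0.35 with Psmb11. Their part in the covariation was not tested. Depth itself had a rho of 0.10 with Psmb11 and 0.04 with Ccl25. The rho of the 6 markers with plate row and column ran from -0.05 to 0.08. With the share of reads outside genes, the rho of the 6 markers ran from -0.23 (Psmb11) to -0.10 (Foxn1). That share had a rho of 0.22 with plate column, and its part was not tested either.

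RNA of other cell types was scarce, with 1 exception. The 17 thymocyte genes summed to 68.9 CPM, the 7 B cell genes to 7.19 CPM, the 8 endothelial genes to 7.01 CPM and the 6 erythroid genes to 1.04 CPM, with the globin genes at 0. The 10 myeloid genes summed to 29.7 CPM, or 18.4 CPM without the 3 cells named above. The summed level of all leukocyte genes was 1.33 CPM in the median cell and passed 100 CPM in 52 cells and 1000 CPM in 10. The medullary list summed to 397.3 CPM, or 133.6 CPM without those 3 cells, with Aire at 10 or more reads in 6 cells and Fezf2 in 9. Tissue-restricted antigens summed to 34.5 CPM, or 25.6 CPM without the 3 cells, and Ins2, Mup4 and Fabp2 had no read.

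The exception was the fibroblast list, at 1869.7 CPM. It was carried by the proteoglycan Dcn (1492 CPM, at 10 or more reads in 230 cells) and by the matrix genes Fn1 (270.1 CPM) and Fbn1 (57.4 CPM). The other 7 genes summed to 50.03 CPM: Pdgfra, a defining fibroblast receptor, had no read, Col1a1 stood at 0.406 CPM and Col1a2 at 18.2 CPM. The part of fibroblast RNA in the Dcn level was not tested. Xist was found in 93.75% of the cells, and reads of the Y-linked genes listed were found in 7 cells, never more than 1 read in a cell.

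**Figure D4:**
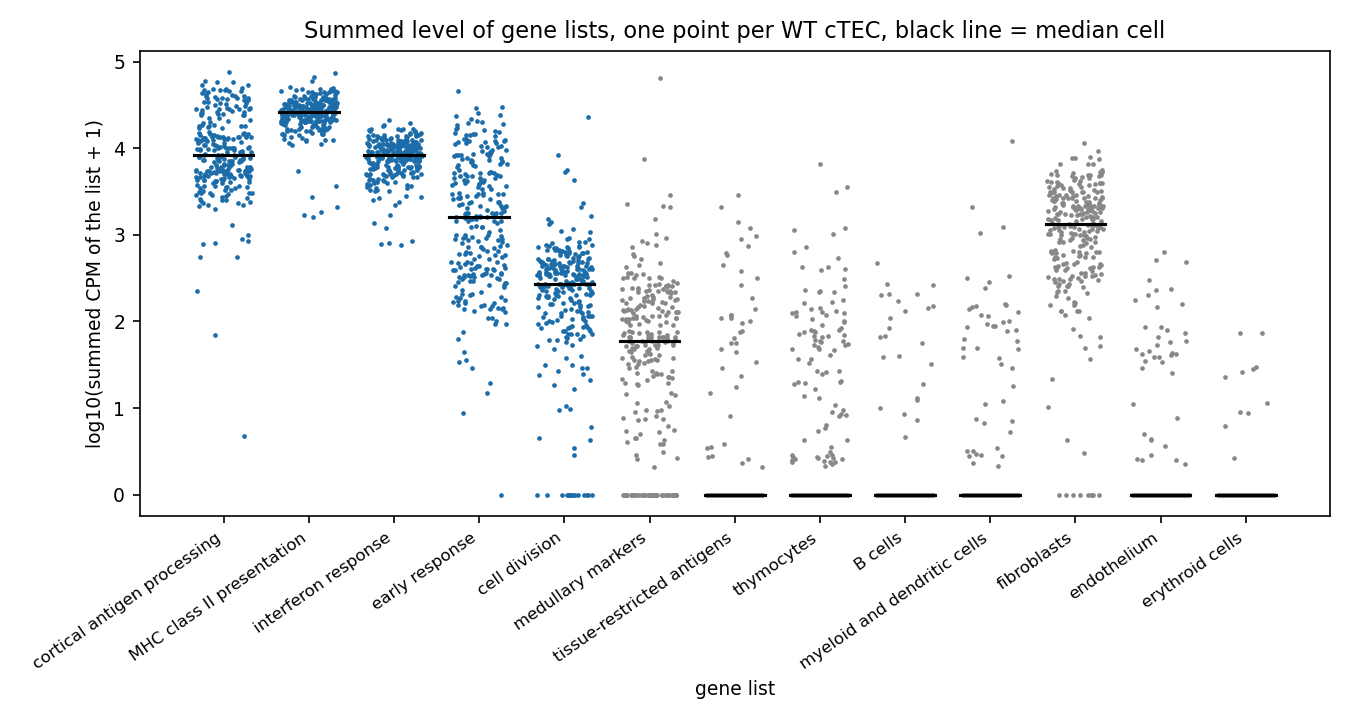
Summed level of gene lists in each of the WT cTECs as log10(summed CPM + 1), with 1 point per cell and a black line at the median cell; lists of cortical and general programmes are blue and lists of other cell types grey. Class II genes lie in a narrow band (median cell 26361 CPM), early response genes run from 0 to 46025 CPM, and thymocyte, B cell and myeloid lists have a median cell at 0.

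Against WT mTEChi cells, WT cTECs held more of the cortical enzymes and of organ-building genes and less of the medullary programme. Of 12183 genes with at least 10 CPM in either group, 1307 (10.7%) were at least 4-fold higher in WT cTECs and 2084 (17.1%) at least 4-fold lower, with a median log2 difference of 0.29 over all of them. All 5 cortical antigen processing genes were at least 4-fold higher. Of the 8 other cortical markers, 2 were at least 4-fold higher and 1 was lower, with a median log2 difference of 0.32. The lower one was Cd40 (28.7 against 390.8 CPM), and Krt8 (-0.13) and Tbata (0.37) were among those short of 4-fold. Prss16 stood at 66.9 CPM in mTEChi cells (29.5 to 124.65 over the 4 plates), a log2 difference of 5.68. Psmb11 stood at 24.3 CPM there (0 to 64.01), a difference of 5.02, and Ctsl at 629 CPM (330 to 797), a difference of 3.67. The ranges of the 4 plates lay below the WT cTEC level in each case. Ccl25, at 769 CPM in mTEChi cells (208.75 to 999), differed by 1.15, Foxn1 (86.7 CPM) by 1.59 and Dll4 (28.1 CPM) by 1.73, each short of 4-fold.

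Thymocyte support genes differed one by one: 6 of 14 were at least 4-fold higher and 1 lower. Cxcl12 had the largest log2 difference, 6.67, with 20.6 CPM in mTEChi cells (2.76 to 42.3). Jag2 (3.93), Dll1 (3.32), Wnt4 (3.28), Kitl (3.05) and Jag1 (2.28) were also higher, and Tslp was lower (-4.24). Over the mTEChi plates Tslp ran from 0.157 to 140.98 CPM, a range that spans its 2.12 CPM in WT cTECs. Of the receptors, 8 of 17 were higher, led by Fgfr1 (8.94, 43.8 against 0.0894 CPM) and Tgfbr2 (5.84), with Tnfrsf11a lower (-4.09). Of the organogenesis factors, 5 of 11 were higher, Trp63 by 3.63 and Meis1 by 3.43. Interferon response genes were higher for 8 of 18 and lower for none, among them Isg15 (4.67) and Ifit3 (3.26), and early response genes for 8 of 15, among them Fosb (5.70) and Egr1 (4.12).

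Genes at least 4-fold lower in WT cTECs included members of the medullary, division and leukocyte lists. Of the medullary markers, 8 of 11 were at least 4-fold lower and none higher: Aire stood at 5.58 CPM (2.66 without the 3 cells) against 954 CPM and Fezf2 at 10.8 against 517.9 CPM. Tissue-restricted antigens were lower for 13 of 14, with the milk protein Csn2 at 12.2 CPM (3.55 without the 3 cells) against 1604 CPM and the gut lectin Reg3g at 13.8 against 3305 CPM. Division genes were lower for 19 of 26. Among lysosomal genes 5 of 19 were lower, Ctsh by -5.39 and Ctss by -4.69, while Ctsl and Lamp2 were higher. Of the class II genes, H2-Oa (-2.28), H2-Ob (-2.09) and H2-DMb2 (-2.07) were lower, Rfxap was higher (2.85), and H2-Aa (-1.32), H2-Ab1 (-0.86) and Cd74 (-0.60) were short of 4-fold.

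Leukocyte genes moved with this comparison: the myeloid list summed to 1819 CPM in WT mTEChi cells (1124 to 2650 over plates) and the B cell list to 254.25 CPM. Of these genes, 8 of 9 myeloid, 5 of 5 B cell and 6 of 10 thymocyte genes were at least 4-fold lower in WT cTECs. Their part in the differences was not tested. In cells with at most 100 CPM of leukocyte genes, of which 220 WT cTECs but only 50 mTEChi cells remained, 1350 genes were higher and 1439 lower, and the log2 differences were 3.10 for Ccl25 and 2.27 for Foxn1, both past 4-fold, 2.46 for Ctsl and 11.23 for Psmb11, of which those 50 cells held 5 reads. Those of Prss16 and Dll4 were 5.95 and 1.79. Without the mTEChi plate of the highest number in the labels, the difference of Dll4 was 2.26, past 4-fold. Without the plate that held the most Psmb11 (64.01 CPM) and Prss16 (124.65 CPM), the differences of these genes were 7.60 and 6.52.

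Outside the lists, the largest differences with a level beyond every mTEChi plate included the glycine receptor subunit Glrb (60.1 against 0.0112 CPM, which is 1 read), the sodium channel Scn1a (270.6 against 0.101 CPM) and Trim12a (77.2 CPM against no read, at least 2304-fold by a floor of 3 reads over the group). The remaining 7 were the RNA copies Gm10717, Gm12328, Gm10801, Gm15564, Gm10800, Gm13340 and Rn7s1, whose reads can belong to repeats. On the other side stood Apoa4 (0.0145 against 323.3 CPM), Tff3, Spp1, Cyp26a1, Dppa3, Fabp6, Slc2a6, Sprr2i, Gm10123 and Gm13394, each with 1 to 6 reads in all WT cTECs. Without the 3 cells named earlier, Apoa4, Tff3 and Sprr2i had no read and Spp1 stood at 0.0146 CPM. Scn1a was found in 82.7% of WT cTECs and at 77.1 CPM in Eed cTECs. Trim12a stood at 0.331 CPM in Eed cTECs, so that it was near 0 in both other groups.

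Beside the Eed cTECs, WT cTECs held at least 4-fold more of 5 of the 6 markers. Of 10954 genes, 2.33% were at least 4-fold higher in WT cTECs and 5.9% at least 4-fold lower, with a median log2 difference of -0.01. Psmb11 stood at 34.3 CPM in Eed cTECs (log2 difference 4.53), in a strain whose Cre sits at that locus, so allele and level cannot be told apart. Ccl25 stood at 71.2 CPM (4.58), Prss16 at 218.8 CPM (3.98), Dll4 at 6.61 CPM (3.82) and Ctsl at 1541 CPM (2.38). Foxn1, at 75.5 CPM, differed by 1.79, short of 4-fold. Of the variable genes that covaried with Psmb11, Tbata (4.94), Crip3 (3.47) and Fabp5 (2.56) were likewise higher. Psmb10 (2.75) and the chaperones Hspa8 (3.20) and Hsp90aa1 (2.54) were higher in WT cTECs as well.

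Lower in WT cTECs were 6 of the 15 early response genes, among them Atf3 (-3.27) and Dusp1 (-3.50), and 4 of the 14 keratins and adhesion genes, with Krt15 at 1.25 against 1137 CPM and Krt5 by -2.31. Of the 11 G1 regulators, 4 were lower: Cdkn1c (-4.57), Cdkn2b (-3.72), Cdkn1a (-3.08) and Ccnd1 (-2.44). The first 3 are inhibitors of cyclin-dependent kinases and the last is a cyclin. The largest differences by the rule for named genes included, on the higher side, Ccl22 (1 cell), Trim12a, Trim30d and Rps16 (482.4 against 10.3 CPM). On the lower side they included Igf2 (0.0217 against 96.3 CPM), Prrx1, Slc38a3 (no read without the 3 cells named earlier) and Gm11662. Rps16 also stood at only 20.1 CPM in WT mTEChi cells, and Trim30d at 0.291 CPM.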

How the data were processed

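Single thymic epithelial cells were sorted from digested mouse tissue and amplified with SMART-seq2, per the labels' protocols. The authors deposited whole-number read counts per gene, with 92 spike-in rows and 5 rows of unassigned reads kept here out of the 45317 gene rows. The submitters' processing notes name HISAT 0.1.6, HTSeq and the build mm10. Tool roles, annotation and strand setting: not given in the sources used here. Genes that overlap, lie antisense or have near-identical copies may therefore share reads. Of the table's columns of counts, 32 from pooled samples were not used.

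Variation was set against a running median of 201 genes. From these counts, CPM, shares of cells, CV2 and Spearman's rho were computed with Python 3.11.15, pandas 2.3.3 and scipy 1.17.1, and figures with matplotlib 3.10.9. A gene was called apart between groups at 4-fold with at least 10 CPM in the higher group, and a group without a read was set to a floor of 3 reads over the group. The fold and variation calls were run on simulated counts, with changes planted only in genes of at least 50 CPM. The outcome is not reported here, and no result rests on it. No doublet caller was run. Named genes were the 6 markers, up to 5 members per list by level, the 20 genes with most reads, the 20 most and 10 least variable from 50 CPM, the 10 largest differences each way from mTEChi cells and 5 from Eed cTECs from 50 CPM, and the 10 genes most like Psmb11 and Ccl25. Other list members are named to account for counts, and were picked after their values were seen. That rule asked for levels per kilobase; CPM was used in its place. The cells, lists and markers were chosen with earlier results of these data known. No test was made, as each group counts as 1 sample. Alternatives were a stricter and a looser depth filter, thinning to 50000 reads, detection from 10 reads, the mean of CPM over cells, a total without mitochondrial genes, a spike-in trend, edgeR 4.0.16 TMM scaling, a floor of 1 CPM, and leaving out each mTEChi plate. Leaving out cells rich in reads outside genes, cells rich in leukocyte reads, and 3 odd cells was added after seeing the data. Gene symbols of 32165 rows matched RefSeq. Some named genes are not reported here.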

Additional observations from a re-analysis of the deposited data

Results flagged for a closer look

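Reads of cortical markers appeared outside the cells described. In the WT cTEC wells left out with under 2000 gene reads (27.1% of the plate, with a median of 721 reads), the summed level was 4266 CPM for Ctsl, 1764 CPM for Prss16, 899 CPM for Ccl25, 322.8 CPM for Psmb11, 92.2 CPM for Foxn1 and 92.2 CPM for Dll4. The kept cells held 7995, 3443, 1703, 789.96, 260.7 and 93.4 CPM of these genes. The highest count in any of these wells was 8, for Ctsl. Of the 14 no template controls, all on the mTEChi plates, 1 held reads of Ccl25, at 2105 CPM of its 67466 gene reads. Ctsl was found in 2 of them (up to 28 reads), and Prss16 and Foxn1 in 1 each (up to 4 and 1).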

How the results depend on the processing

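Counting a gene as found from 10 reads instead of 1 left 3425 genes in at least 50% of the WT cTECs, against 5446. With a floor of 1 CPM in place of 10, 7818 genes were at least 4-fold apart from WT mTEChi cells (2484 higher and 5334 lower in WT cTECs, against 1307 and 2084), and 2738 from Eed cTECs (1114 higher and 1624 lower), which moved the share of higher calls against Eed cTECs from 28.3% to 40.7%. The lower floor compares more genes. Leaving out each mTEChi plate in turn gave 1275 to 1458 higher and 1990 to 2196 lower genes. In cells poor in leukocyte reads the share of higher calls against mTEChi cells was 48.4%, against 38.5%; the cause was not tested. A spike-in trend, with the limits of its fit named earlier, called 606 genes variable and put Ctsl 3.58 natural-log units above it. TMM scaling gave a median log2 difference of 0.33 against mTEChi cells and -0.08 against Eed cTECs. In all, 62 summary values kept within their limits and 7 moved, and 42 single-gene values moved. Those limits are not given here, so these counts do not show how firm the results are. The summary values are counts of genes, which cannot change sign, so a reversal was not possible for them. Of the single-gene values 0 reversed, but levels and shares of cells cannot change sign either. No paired analysis was possible because each group counts as 1 sample. Depth limits the shares of cells: Psmb11 was found in 63.2% of cells at full depth and in 52.2% at 50000 gene reads a cell.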

Other observations

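Some single WT cTECs, picked after their values were seen, stood apart in ways that no list count shows. The cell with the most Krt5 (16930 CPM) also held Fcgbp at 14086 CPM, with Ctsl at 9.27 CPM and H2-Aa at 6.95 CPM. The cell with the most Mki67 (2603 CPM) held 22790 CPM of division genes in sum, with Prss16 at 1080.4 CPM and no read of Psmb11.

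Heat shock genes did not follow 1 pattern in WT cTECs. The constitutive chaperones Hsp90ab1 and Hspa8 were found in all and in 99.6% of the cells, and Hsp90ab1 lay 0.92 natural-log units below the variation trend. The inducible Hspa1a lay 1.18 above it, with a median cell of 81.6 CPM and a highest of 2631 CPM. The small heat shock gene Hspb1 lay 1.97 above it, with a read in 32.7% of the cells and a highest cell at 4015 CPM.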
